A study of Mus musculus with 44 samples.

Results

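The mevalonate pathway is the route by which animal cells turn acetyl-CoA into farnesyl pyrophosphate, the last common precursor of cholesterol, of the dolichol and ubiquinone side chains and of the lipid anchors of small GTPases. Here 7 of its enzymes were followed over the day in dendritic cells of the lymph node: *Acat2*, *Hmgcs1*, *Mvk*, *Pmvk*, *Mvd*, *Idi1* and *Fdps*. They were chosen by gene symbol as steps of the route, they are 7 of the 14699 genes of the deposited table, and not every enzyme of the route is among them. All 7 passed the filter on low values (1 CPM or more in 5 or more of the 44 libraries, CPM being the reads of a gene scaled to the library size), as did 11963 genes in all.

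The libraries came from cells stained CD45+CD11c+MHCII high and sorted from the draining inguinal lymph node of female mice of 8 to 12 weeks, 24 h after a subcutaneous injection at ZT3, ZT9, ZT15 or ZT21 (zeitgeber time, in hours after lights on in a 12 h light and 12 h dark cycle). Control mice, whose genotype is given as WT, received B16-F10-OVA cells, a mouse melanoma line that expresses ovalbumin (control tumour, 5 mice per timepoint, 20 in all), or PBS (sham, 3 per timepoint, 12 in all). Mice labelled KO received the same B16-F10-OVA cells (3 per timepoint, 12 in all). They carried *Clec9a-cre* on 1 allele and *Bmal1* flox on both, a design (Bmal1ΔcDC) that removes the clock gene *Bmal1* (*Arntl*) in conventional dendritic cells, the cells in which *Clec9a* drives the recombinase, and not in the other cells of the sort. The level of *Arntl* was no lower under the KO label, at 19.9 ± 6.91 CPM (SD, n = 12) against 14.8 ± 3.65 CPM in control tumour (n = 20), with an adjusted p of 0.0153 for the higher level (limma) and 21.7 ± 6.11 CPM in sham (n = 12). A value for the whole gene includes reads of exons that a conditional deletion leaves in place, and these libraries are called by their label throughout.

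Depth and makeup differed between the groups. A control tumour library held 20088012 to 28962671 reads on genes, one labelled KO 29406729 to 55799163 and a sham library 28003329 to 49590055, so that a value of 1 CPM stood for a median of 23.7, 37.0 and 37.9 reads. All 6 markers of the sorted cells were present in every library, with *Cd74* at 11134, *H2-Ab1* at 2331 and *Itgax* at 43 CPM on average in control tumour. The summed level of 8 macrophage and monocyte genes was 416 to 1091 CPM in control tumour, 873 to 3174 in the libraries labelled KO and 1782 to 3253 in sham, and that of 17 T cell genes was 669 to 1173, 824 to 1670 and 910 to 1808 CPM. In bulk samples fewer cells of a type and less RNA per cell cannot be told apart, and the p-values below measure the spread between mice. The study describes more than 1 independent experiment, and the labels do not assign mice to them, so no such term was fitted and differences between experiments are part of that spread or of the groups.

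In this route *Acat2* encodes the cytosolic thiolase that joins acetyl-CoA units into acetoacetyl-CoA, and *Hmgcs1* the cytosolic HMG-CoA synthase that adds another. After mevalonate has been formed, *Mvk* and *Pmvk* encode the kinases that phosphorylate it in turn, and *Mvd* the decarboxylase that yields isopentenyl pyrophosphate. *Idi1* encodes the isomerase that makes dimethylallyl pyrophosphate from it, and *Fdps* the synthase that condenses these units into farnesyl pyrophosphate. The genes of this route are known targets of SREBP2 (*Srebf2*), a membrane-bound transcription factor released when sterols in the endoplasmic reticulum are low and held back by the INSIG proteins. SREBP2 binds sterol regulatory elements together with NF-Y and Sp1. In dendritic cells lipid products of the route anchor the small GTPases that serve antigen uptake and migration.

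RefSeq promoter windows on GRCm38.p6, from 250 bases before to 50 bases after the annotated start, were available for 6 of the 7 genes (all but *Fdps*). They were searched on both strands for 4 short motifs, none of which contains another: a form of the sterol regulatory element (TCACNCCAC), the NF-Y box (CCAAT), the Sp1 box (GGGCGG) and the E-box CACGTG that CLOCK and BMAL1 bind, a palindrome. The windows of 4 genes are shown because they run from matches to all motifs of the sterol group in *Hmgcs1* to a single Sp1 box in *Acat2*, and capitals mark the matches. *Hmgcs1* lies at chr13:119690101-119690400 on the plus strand, *Mvk* at chr5:114444019-114444318 on the plus strand, *Mvd* at chr8:122443373-122443672 on the minus strand and *Acat2* at chr17:12960676-12960975 on the minus strand.
Hmgcs1: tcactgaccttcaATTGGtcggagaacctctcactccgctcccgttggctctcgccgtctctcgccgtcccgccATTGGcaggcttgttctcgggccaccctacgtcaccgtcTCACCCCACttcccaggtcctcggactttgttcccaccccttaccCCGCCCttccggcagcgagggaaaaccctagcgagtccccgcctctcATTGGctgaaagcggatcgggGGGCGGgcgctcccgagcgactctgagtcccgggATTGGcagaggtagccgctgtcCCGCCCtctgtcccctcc
Mvk: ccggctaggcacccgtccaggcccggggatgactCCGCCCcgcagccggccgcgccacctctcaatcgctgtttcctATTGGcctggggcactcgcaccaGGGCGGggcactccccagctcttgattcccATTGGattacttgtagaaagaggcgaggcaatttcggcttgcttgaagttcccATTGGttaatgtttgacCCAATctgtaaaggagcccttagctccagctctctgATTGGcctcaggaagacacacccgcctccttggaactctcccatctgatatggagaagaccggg
Mvd: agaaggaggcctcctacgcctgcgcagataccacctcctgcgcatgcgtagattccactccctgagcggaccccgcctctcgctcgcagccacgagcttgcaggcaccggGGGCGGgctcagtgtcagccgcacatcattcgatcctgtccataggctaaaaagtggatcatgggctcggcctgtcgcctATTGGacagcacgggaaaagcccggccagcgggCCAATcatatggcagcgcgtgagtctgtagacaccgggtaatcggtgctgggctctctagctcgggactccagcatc
Acat2: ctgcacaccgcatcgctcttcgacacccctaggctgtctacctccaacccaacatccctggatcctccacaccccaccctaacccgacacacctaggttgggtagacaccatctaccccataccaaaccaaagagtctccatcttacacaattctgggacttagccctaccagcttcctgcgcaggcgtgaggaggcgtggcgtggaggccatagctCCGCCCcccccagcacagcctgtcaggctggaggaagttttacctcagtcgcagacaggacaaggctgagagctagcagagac

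This form of the sterol element was found only in the *Hmgcs1* window among the 6 genes, with its first base 137 bases before the start, and 1.24% of the 32851 RefSeq windows of this length hold it. The same search found no match in the windows of the sterol genes *Insig1*, *Cyp51*, *Lss*, *Msmo1* and *Hsd17b7*. Other forms of the element were not searched, so a window without a match may hold one. NF-Y boxes were most frequent in *Mvk* with 5 and *Hmgcs1* with 4, followed by 2 each in *Mvd* and *Idi1*, while *Acat2* had none. The window at the first of 2 annotated *Pmvk* starts had 1, and the window at the other start held no match to any of the 4 motifs. An NF-Y box is present in 37.4% of all windows and in 37.3% of those of genes tested here. Sp1 boxes numbered 3 in *Hmgcs1*, 2 in *Mvk*, 1 each in *Mvd*, *Idi1* and *Acat2* and 0 in *Pmvk*, against 35.7% of all windows with at least 1, and 61.2% of the windows of genes tested here. None of the 6 genes had a CACGTG E-box in its window, which 7.15% of all windows and 9.64% of those of genes tested here hold. At such shares its absence from so few windows says little. These matches describe letters in a window and not occupied sites.

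**Figure D1:**
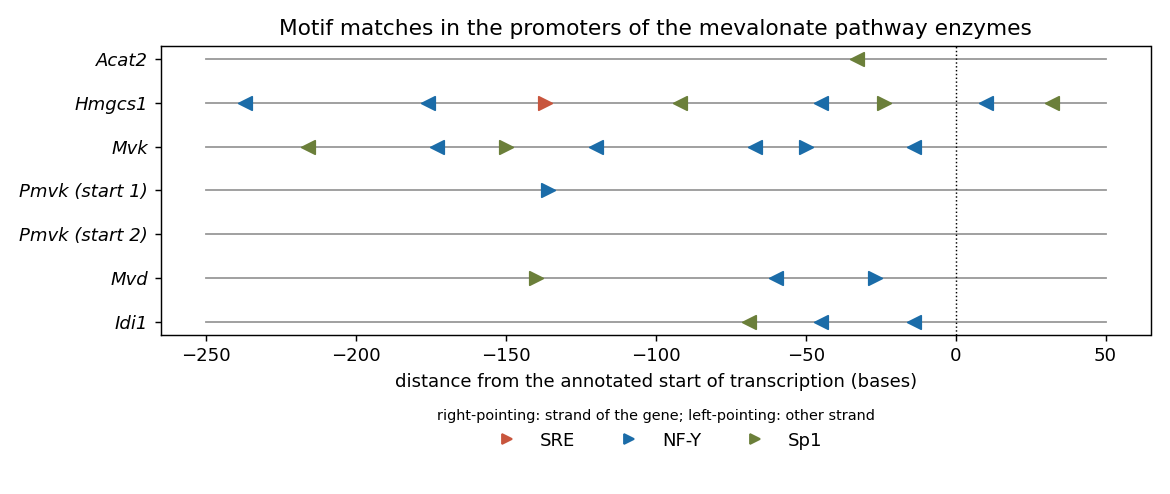
Positions of motif matches in the promoter windows of the 6 members with a RefSeq entry, drawn by distance in bases from the annotated start, with 1 line per window, 1 colour per motif and the arrowhead giving the strand. *Hmgcs1* is the only one of these genes with a match to the form of the sterol element searched, at 137 bases before the start, and *Mvk* has the most NF-Y boxes (5).

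Among the enzymes, *Idi1* transcripts were the most abundant per length. Mean levels in control tumour were 163 ± 26.6 CPM per kb of exon for *Idi1*, 42.7 ± 9.4 for *Fdps*, 41.4 ± 9 for *Mvd*, 37.8 ± 11 for *Hmgcs1*, 37.8 ± 5.47 for *Pmvk*, 9.23 ± 1.68 for *Mvk* and 9.09 ± 1.77 for *Acat2* (SD, n = 20). *Fdps*, *Mvd*, *Hmgcs1* and *Pmvk* did not differ from their neighbours in this order beyond the SD, and neither did *Mvk* and *Acat2*, whereas *Idi1* stood well above and the *Mvk* and *Acat2* pair well below the other 4. In the libraries labelled KO and in sham, *Idi1* was again the most abundant, at 199 ± 33 and 136 ± 30.9 CPM per kb (n = 12 each). The lowest was *Mvk* in both, at 6.62 ± 2.13 and 7.45 ± 1.23 CPM per kb, although in sham *Acat2* at 7.73 ± 1.44 CPM per kb lay within the SD. The genes lie on 5 chromosomes (GRCm38): *Acat2* at chr17:12942890-12960747, *Hmgcs1* at chr13:119690379-119708260, *Mvk* at chr5:114444269-114460591, *Pmvk* at chr3:89454541-89469013, *Mvd* at chr8:122433601-122443422, *Idi1* at chr13:8885501-8892451 and *Fdps* at chr3:89093588-89101959.

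Counting was deep for all 7, from 275 reads for *Mvk* in its lowest library to 37672 for *Idi1* in its highest. *Acat2* has a near-identical copy, *Acat3*, and its value was not a whole number of reads in 42 of 44 libraries, so its reads may have been split. *Acat3* itself was listed at a median of 0.188 CPM and at 0 in 10 libraries. The kit does not mark the strand, and reads over 1124 exon bases of *Fdps* (26.7%) shared with *Gm43738*, over 557 of *Hmgcs1* (12.1%) shared with the antisense *Gm48342* and over 323 of *Idi1* (9.22%) shared with *Gm48574* cannot be assigned to 1 of the 2 genes by position. *Gm43738*, *Gm48342* and *Gm48574* themselves are not among the genes of the deposited table.

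The first question was whether the enzymes varied with the time of day in control mice with tumour cells. In the deposited values all 7 had their highest mean at ZT9, in the afternoon, and 6 had their lowest at ZT21, late in the dark phase. *Pmvk* was lowest at ZT3. Under median-of-ratios scaling 5 of 7 were higher at ZT9 than at ZT3, and 1 of 7 was higher at ZT15 than at ZT9. *Hmgcs1*, *Mvd* and *Fdps* passed the test of a difference among timepoints, and *Hmgcs1* and *Fdps* passed the direct test of ZT9 against ZT21.

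*Hmgcs1*, the HMG-CoA synthase, read 177, 310.4, 236, 222 and 194 CPM in the 5 control tumour mice at ZT9 and 135, 123, 92.2, 113 and 137 CPM at ZT21. Every ZT9 mouse was above every ZT21 mouse. The means were 188 ± 20.2 CPM at ZT3, 228 ± 51.7 at ZT9, 159 ± 31.2 at ZT15 and 120 ± 18.2 at ZT21 (SD, n = 5 each). On the scale of log2(CPM + 0.5) ZT9 exceeded ZT21 by 0.910 (SE 0.159), a fold of 1.88, with an adjusted p of 0.0184 over all genes tested (limma, Benjamini-Hochberg), and the test among the 4 timepoints gave an adjusted p of 0.0120.

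*Fdps*, the farnesyl pyrophosphate synthase, read 235, 214, 222, 208 and 201 CPM at ZT9 and 141, 131, 100.4, 132 and 149 CPM at ZT21. The groups were far apart, with a gap between 149 and 201 CPM. At ZT3 the values ran from 119 to 225 CPM and at ZT15 from 164 to 221 CPM, so both of these timepoints overlapped ZT9. The difference between ZT9 and ZT21 was 0.733 (SE 0.147, fold 1.66, adjusted p = 0.0455), and the adjusted p among timepoints was 0.0259. *Fdps* kept an adjusted p under 0.05 between ZT9 and ZT21 in 4 of the 20 fits that left out 1 mouse, where it ranged from 0.0117 to 0.119. The corresponding range for *Hmgcs1* was 0.0169 to 0.0736, with the call lost in 5 of 20.

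*Mvd*, the decarboxylase, read 103, 99.3, 92.1, 74.8 and 85.5 CPM at ZT9 against 68.4, 55.5, 49.7, 60.5 and 49.7 CPM at ZT21. Again no ZT21 mouse reached the lowest ZT9 mouse. Its difference of 0.678 (SE 0.141) had an adjusted p of 0.0511, just outside the threshold, while the test among timepoints passed (adjusted p = 0.0296). The mean at ZT15, 80.6 ± 10.2 CPM (n = 5), was still close to that at ZT3 (79.7 ± 15.9 CPM).

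The other 4 enzymes were not called by these tests at an adjusted p under 0.05. *Acat2*, the thiolase, ranged from 25.1 to 30.6 CPM at ZT9 and from 14.6 to 21.2 CPM at ZT21 without overlap (log2 difference 0.549, SE 0.138, adjusted p = 0.114). *Mvk*, the mevalonate kinase, read 27.5, 27.2, 30.0, 31.7 and 26.5 CPM at ZT9 and 19.0, 19.3, 15.2, 25.5 and 20.8 CPM at ZT21 (0.523, SE 0.142, adjusted p = 0.162). Of the ZT21 mice 4 read 20.8 CPM or less, and the remaining mouse lay just under the ZT9 range. *Pmvk*, the next kinase, had the smallest difference (0.206, SE 0.133, adjusted p = 0.542), its ZT9 mice at 66.4 to 76.5 CPM lying just above its ZT21 mice at 54.2 to 65.9 CPM. *Idi1*, the isomerase, was the one whose groups overlapped: 502, 699, 682, 727 and 548 CPM at ZT9 against 484, 474, 387, 477 and 613 CPM at ZT21 (0.375, SE 0.132, adjusted p = 0.293).

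**Figure D2:**
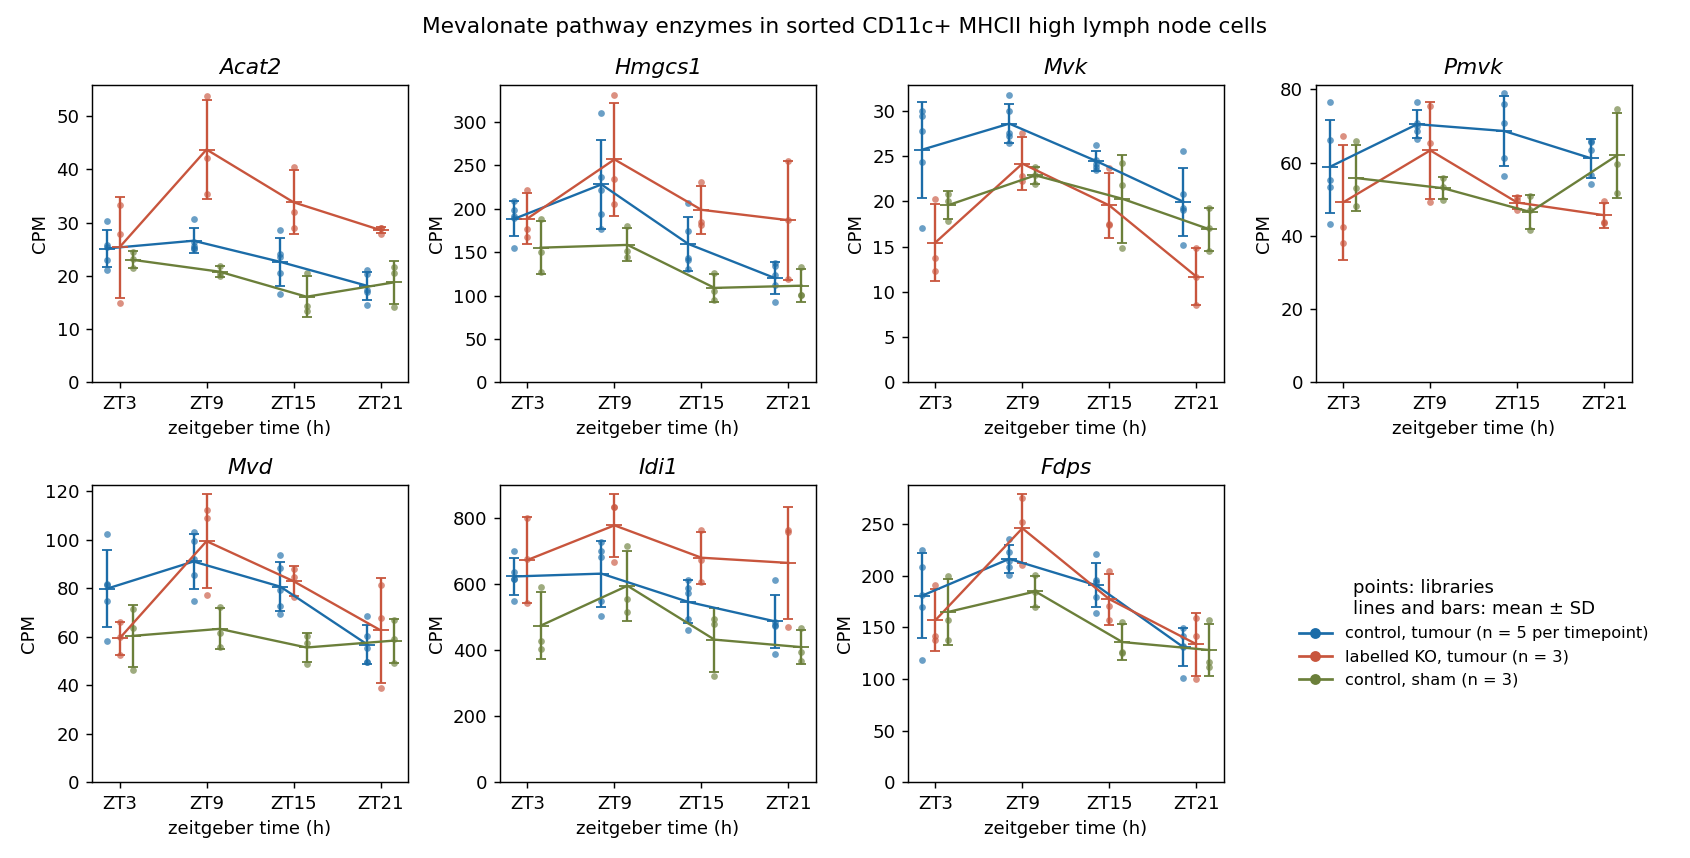
CPM of each of the 7 enzymes (vertical axes, linear) against zeitgeber time in hours (horizontal axes), with 1 point per mouse and lines and bars for the mean and SD, for control tumour (5 mice per timepoint), libraries labelled KO (3) and sham (3). In control tumour every enzyme has its highest mean at ZT9 in these deposited values, and *Hmgcs1* falls from a mean of 228 CPM there to 120 CPM at ZT21.

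The members' counts are set here beside the shares over all genes tested in the same fits. In control tumour 3 of 7 members were called by the test among timepoints against 5.28% of all genes, and 6 of 7 against 23.1% at an unadjusted p under 0.05. The count of 3 was 1 under median-of-ratios scaling and 1 to 5 with a mouse left out (5 without ZT3 replicate 4, and 1 without ZT9 replicate 3, ZT21 replicate 2 or ZT21 replicate 3). The call of *Mvd* was lost in 5 and that of *Fdps* in 4 of these 20 fits, and that of *Hmgcs1* in 0. For higher levels at ZT9 than at ZT21, 2 of 7 were called against 0.0920%, and 6 of 7 had an unadjusted p under 0.05 against 11.5% in either direction. The count of 2 was 1 under median-of-ratios scaling and 0 to 3 with a mouse left out. It was 0 without ZT9 replicate 2, 3 or 4 or ZT21 replicate 3 or 4. With a block on replicate number the counts of 3 and 2 became 1 and 0. With array weights, which met a convergence warning, both became 6. All ZT9 mice lay above all ZT21 mice in 6 of 7 members against 2.38% of all genes. The median log2 difference was 0.549 over the members and 0.040 over all genes tested. Among the other pairs of timepoints, 2 of 7 members were called lower at ZT21 than at ZT15 against 0.794% of all genes. At ZT15 1 of 7 was called lower than at ZT9 against 8.94%. Both counts were 0 under median-of-ratios scaling. Between ZT9 and ZT3, ZT21 and ZT3, and ZT3 and ZT15, 0 of 7 were called against 0.167%, 0.0418% and 0% of all genes. No member reached a 2-fold difference in control tumour, the widest ratio of means being 1.9 for *Hmgcs1*.

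A cosinor, which fits a cosine of a 24-h period, placed the peak of 6 members between 7.18 h (*Idi1*) and 9.53 h (*Fdps*) and that of *Pmvk* at 12.2 h in control tumour. Amplitudes on the log2 scale were 0.472 (SE 0.079) for *Hmgcs1*, 0.370 (SE 0.075) for *Fdps*, 0.339 (SE 0.074) for *Mvd*, 0.286 (SE 0.070) for *Acat2*, 0.263 (SE 0.071) for *Mvk*, 0.211 (SE 0.066) for *Idi1* and 0.156 (SE 0.066) for *Pmvk*. None of the 7 was called at an adjusted p under 0.05 (limma), where 0.0251% of all genes were. The count was 0 to 2 with a mouse left out and 3 with array weights, which met a convergence warning. At an unadjusted p under 0.05 there were 6 of 7 members against 9.20% of all genes. *Hmgcs1* came closest, with an adjusted p of 0.0746 and the rank of 6 among all genes. With 4 timepoints over a single day, a cosine cannot be told apart well from a rise at ZT9 alone or a fall at ZT21 alone.

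Some markers of other cells and of stress also differed among timepoints in control tumour, where the test called 5.28% of all genes. Of 8 macrophage and monocyte genes 7 were called by the test among timepoints, and their summed level was 416 to 583 CPM at ZT9, 576 to 717 at ZT21, 608 to 1091 at ZT3 and 850 to 1086 at ZT15. Of 17 T cell genes 2 (*Cd3g* and *Cd3d*) were called among timepoints, as were 1 of 5 NK genes (*Ncr1*) and 1 of 8 cell cycle genes (*Mki67*). Of the T cell genes 1 (*Cd3g*) was called lower at ZT9 than at ZT21, beside 0.134% of all genes. The median log2 difference over the list was -0.609, with summed levels of 669 to 898 CPM at ZT9 and 917 to 1173 CPM at ZT21. The macrophage and T cell sums both had their lowest median at ZT9, where the enzymes were highest. Of 9 dissociation stress genes 3 were called among timepoints (*Egr1*, *Dnajb1* and *Fos*), with summed levels of 2890 to 3876 CPM at ZT3, 2010 to 2889 at ZT9, 2837 to 3953 at ZT15 and 2077 to 2912 at ZT21. Of 6 cDC2 genes 2 were called (*Mgl2* and *Cd209a*), with sums of 164 to 235, 150 to 216, 160 to 277 and 135 to 222 CPM at these times. The part of these in the course of the enzymes was not tested. The summed level of the 6 sorted-cell markers was 10932 to 13717 CPM at ZT9 and 12609 to 14820 CPM at ZT21.

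The same times were then compared in the libraries labelled KO. All 7 enzymes again had their highest mean at ZT9. Of the 7, 5 were lowest at ZT21, and *Acat2* and *Mvd* were lowest at ZT3. *Mvk* read 27.5, 22.2 and 22.8 CPM at ZT9 and 11.7, 14.8 and 8.57 CPM at ZT21, a log2 difference of 1.042 (SE 0.247, adjusted p = 0.217). *Fdps* read 252, 209.8 and 275 CPM at ZT9 and 159, 142 and 99.9 CPM at ZT21 (0.894, SE 0.220, adjusted p = 0.236). *Acat2* read 35.3, 42.1 and 53.8 CPM at ZT9 and 29.0, 27.9 and 28.9 CPM at ZT21. In these 3 genes the ZT9 and ZT21 mice did not overlap.

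In the other 4 they did. *Hmgcs1* read 234, 206 and 330.4 CPM at ZT9 and 255, 186 and 118 CPM at ZT21, and *Mvd* 109, 77.2 and 112 CPM at ZT9 and 81.4, 67.8 and 38.8 CPM at ZT21. One ZT21 mouse, replicate 3, was the lowest of its group for *Hmgcs1*, *Mvk*, *Mvd*, *Idi1* and *Fdps*. *Pmvk* overlapped through 1 ZT9 mouse at 49.2 CPM, below the highest ZT21 mouse at 49.6 CPM. *Idi1* ran from 668 to 833 CPM at ZT9 and from 469 to 765 CPM at ZT21.

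In the libraries labelled KO, 0 of 7 members and no other gene reached an adjusted p under 0.05 (limma), by the cosinor (0% of all genes), among timepoints (0%) or as higher at ZT9 than at ZT21 (0%). At an unadjusted p under 0.05 there were 3 of 7 members by the cosinor against 10.5% of all genes, 3 of 7 among timepoints against 10.3% and 3 of 7 between ZT9 and ZT21 against 10.9%. The ZT9 mice were all above the ZT21 mice in 3 of 7 members and in 3.69% of all genes. The median log2 difference between ZT9 and ZT21 was 0.583 over the members and -0.122 over all genes tested. Cosinor peaks lay between 9.36 and 11.6 h, with amplitudes of 0.128 to 0.549.

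In sham mice 5 enzymes had their highest mean at ZT9, *Acat2* had it at ZT3 and *Pmvk* at ZT21. In sham 4 were lowest at ZT15 and 3 at ZT21. *Hmgcs1* read 179.9, 144 and 151 CPM at ZT9 and 101, 133 and 100.1 CPM at ZT21 (log2 difference 0.511). *Mvk* read 23.9, 22.9 and 21.9 CPM against 14.5, 19.2 and 17.0 CPM (0.433), and *Fdps* 200.2, 184 and 169 CPM against 116, 157 and 111 CPM (0.541). *Idi1* read 716, 554 and 515 CPM against 394, 467 and 367 CPM (0.532). These 4 genes did not overlap between the times, whereas *Acat2*, *Pmvk* and *Mvd* did. The log2 difference of *Pmvk* was -0.209, and its sham mice at ZT21 read 51.7, 74.7 and 59.7 CPM.

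In sham, too, the cosinor called 0 of 7 members and 0% of all genes (limma, adjusted p under 0.05), and the same counts, 0 of 7 and 0%, were found among timepoints and for higher levels at ZT9 than at ZT21. At an unadjusted p under 0.05 the counts were 3 of 7 against 7.38% of all genes by the cosinor, 1 of 7 against 7.44% among timepoints and 4 of 7 against 5.32% between ZT9 and ZT21. All ZT9 mice were above all ZT21 mice in 4 of 7 members against 6.65% of all genes. The median log2 difference was 0.433 over the members and 0.028 over all genes tested.

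**Figure D3:**
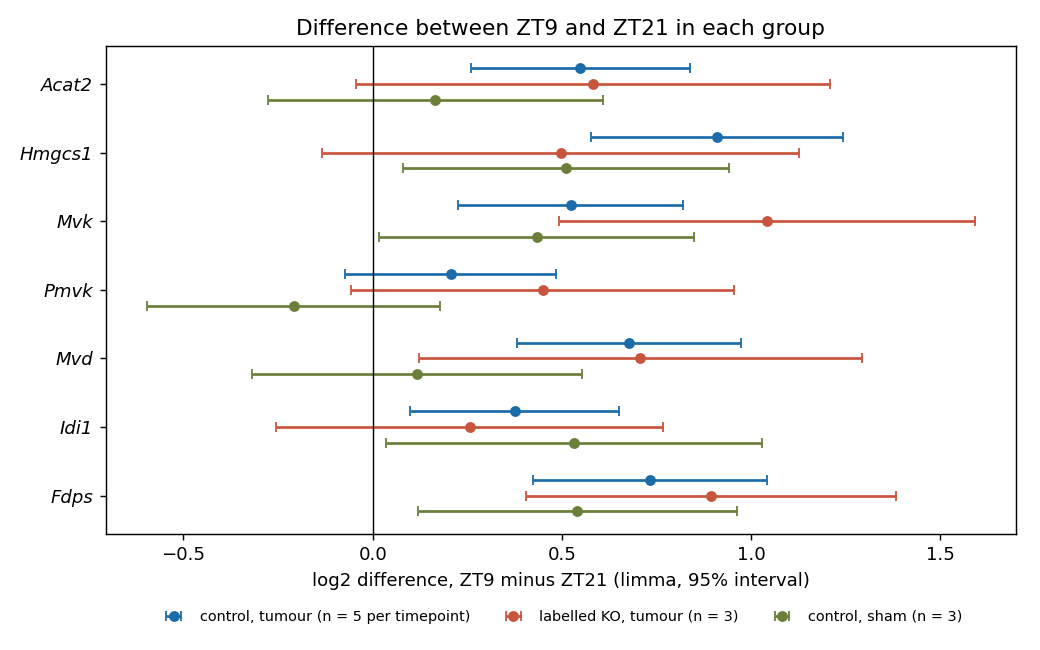
Log2 difference between ZT9 and ZT21 for each enzyme (limma on log2(CPM + 0.5), with 95% intervals) in control tumour, libraries labelled KO and sham, with 1 point and interval per group. In control tumour *Hmgcs1* (0.910) and *Fdps* (0.733) passed an adjusted p of 0.05, and no member did so in the groups with 3 mice per timepoint.

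Whether the course over time differed between groups was tested by interactions. Between control tumour and the libraries labelled KO, 0 of 7 members were called at an adjusted p under 0.05 (limma), as were 0.0502% of all genes, and 1 of 7 had an unadjusted p under 0.05 against 18.3% of all genes. That member was *Acat2* (adjusted p = 0.256), whose level in the libraries labelled KO was close to control at ZT3 (25.4 ± 9.48 CPM, n = 3, against 25.1 ± 3.48 CPM, n = 5) and higher at ZT9 (43.7 ± 9.34 against 26.6 ± 2.31 CPM). Between control tumour and sham, 0 of 7 members and 0% of all genes were called, and 1 of 7, *Pmvk* (adjusted p = 0.394), had an unadjusted p under 0.05 against 11.9% of all genes.

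The intervals of these differences were wide. For the change between ZT9 and ZT21, the libraries labelled KO exceeded control tumour by 0.519 for *Mvk* (95% interval -0.018 to 1.055) and fell short by 0.413 for *Hmgcs1* (difference -0.413, interval -1.027 to 0.201). Median-of-ratios scaling moved the median of all genes in this contrast by 0.177, and that of the members from 0.034 to 0.211. The change of *Mvd* was larger in control tumour than in sham by 0.561 (interval 0.080 to 1.041), with an adjusted p of 0.692. A difference in course between the groups was therefore not shown for any of the 7, and neither was an equal course.

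The next question was whether tumour cells changed the level of the enzymes in control mice. Averaged over the 4 timepoints, all 7 were higher in tumour-injected than in sham mice. *Hmgcs1* averaged 174 ± 50.7 CPM in control tumour (n = 20) and 133 ± 30.7 CPM in sham (n = 12), a log2 difference of 0.359 (SE 0.089, fold 1.28, adjusted p = 0.00219). *Mvd* averaged 77 ± 16.7 and 59.4 ± 8.51 CPM (0.352, SE 0.083, fold 1.28, adjusted p = 0.00128). *Mvk* was higher by 0.296 (SE 0.081, adjusted p = 0.00506), *Idi1* by 0.274 (SE 0.085, adjusted p = 0.0117) and *Pmvk* by 0.253 (SE 0.075, adjusted p = 0.00911). The smallest were *Acat2* at 0.226 (SE 0.082, adjusted p = 0.0311) and *Fdps* at 0.217 (SE 0.084, adjusted p = 0.0421). So 7 of 7 members were called higher against 13.3% of all genes, and 0 of 7 lower against 24.6%. With 1 mouse left out 5 to 7 were called higher, with 5 without sham ZT3 replicate 2, ZT9 replicate 2, ZT15 replicate 3 or ZT21 replicate 3. The median difference was 0.274 over the members and -0.040 over all genes tested.

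By timepoint, the rise was called most often at ZT15. There 5 of 7 members were called higher against 4.42% of all genes, namely *Pmvk* (68.6 ± 9.63 CPM with tumour, n = 5, and 46.5 ± 4.63 CPM in sham, n = 3; log2 difference 0.549), *Hmgcs1* (159 ± 31.2 and 109 ± 15.7 CPM; 0.537), *Mvd* (0.530), *Fdps* (0.489) and *Acat2* (0.480). At ZT9 1 of 7 was called, *Mvd* at 0.521, against 6.13% of all genes, and 0 under median-of-ratios scaling. At ZT3 0 of 7 were called against 1.84% and at ZT21 0 of 7 against 3.35% (limma). At ZT21 the differences ran from -0.040 for *Mvd* to 0.243 for *Idi1*. These differences between times are those of the interaction above, which called no member.

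Beside this rise, markers of other cells differed strongly between the same libraries. All 8 macrophage and monocyte genes, all 5 NK cell genes and all 8 cell cycle genes were lower in control tumour than in sham, by median log2 differences of -1.439, -3.130 and -0.681. The summed NK genes were at 2.21 to 14.3 CPM in control tumour and 31.5 to 297 CPM in sham, and the cell cycle genes at 187 to 237 and 274 to 354 CPM, ranges that did not overlap. Among T cell genes 14 of 17 were lower and 1 higher, and among 9 dissociation stress genes 6 were lower and 2 higher. The control tumour libraries also had the lower depth. The part of these features in the higher level of the enzymes was not tested.

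Between the libraries labelled KO and control tumour the enzymes did not move as 1 group. Averaged over time, *Acat2*, *Idi1* and *Hmgcs1* were higher and *Mvk* and *Pmvk*, the pair of kinases, lower in the libraries labelled KO, while *Mvd* and *Fdps* were not called. *Mvk* averaged 17.7 ± 5.7 CPM (n = 12) against 24.7 ± 4.5 CPM in control tumour (n = 20), a log2 difference of -0.513 (SE 0.092, fold 0.701, adjusted p = 0.000108). Its difference was -0.720 at ZT3, -0.241 at ZT9, -0.329 at ZT15 and -0.760 at ZT21. *Pmvk* averaged 51.8 ± 11.4 against 64.8 ± 9.38 CPM (-0.333, SE 0.085, fold 0.794, adjusted p = 0.00345).

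At the head of the route *Acat2* averaged 32.9 ± 9.56 CPM in the libraries labelled KO against 23.1 ± 4.51 CPM (0.468, SE 0.098, fold 1.38, adjusted p = 0.000608). Its difference was -0.052 at ZT3, 0.689 at ZT9, 0.578 at ZT15 and 0.656 at ZT21. *Idi1* averaged 699 ± 116 against 572 ± 93.2 CPM (0.288, SE 0.085, fold 1.22, adjusted p = 0.0105), a call lost under median-of-ratios scaling. *Hmgcs1* averaged 208 ± 53.1 against 174 ± 50.7 CPM (0.270, SE 0.106, fold 1.21, adjusted p = 0.0499), and its call was lost in 23 of the 32 fits that left out 1 mouse. For *Mvd* the difference was -0.039 (95% interval -0.235 to 0.157, adjusted p = 0.782) and for *Fdps* -0.025 (interval -0.207 to 0.158, adjusted p = 0.856).

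Thus 3 of 7 members were called higher against 23.5% of all genes and 2 of 7 lower against 10.2%, so the share called higher was not far from that of all genes. Under median-of-ratios scaling 1 member (*Acat2*) was called higher and 2 lower. The median difference was -0.025 over the members and 0.098 over all genes tested. Here as well other markers moved: 8 of 8 macrophage and monocyte genes, 4 of 5 NK genes and 8 of 8 cell cycle genes were higher in the libraries labelled KO, by medians of 0.874, 2.008 and 0.463. Of the 9 dissociation stress genes 6 were higher and 1 (*Hspa1b*) lower, with *Egr1* at 1.716 and *Fos* at 1.273, and the summed list was at 3530 to 6372 CPM against 2010 to 3953 CPM in control tumour. Among markers of dendritic cell types, 3 of 6 cDC2 genes and 2 of 3 Langerhans cell genes were higher. Of 6 cDC1 genes 2 were higher and 1 lower, *Clec9a* (-0.828), the gene named in the *Clec9a-cre* allele that these mice carry. Of 7 B cell genes tested 2 were higher, and of 17 T cell genes 6 were higher and 1 (*Tcf7*) lower. The shares of cDC1, B cell and T cell genes called higher were not far from the 23.5% of all genes. In addition, the depth of these libraries was higher. The part of these in the differences of the enzymes was not tested. The same 20 control tumour libraries enter both comparisons, with sham and with the libraries labelled KO, so a low or high value in them moves both.

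**Figure D4:**
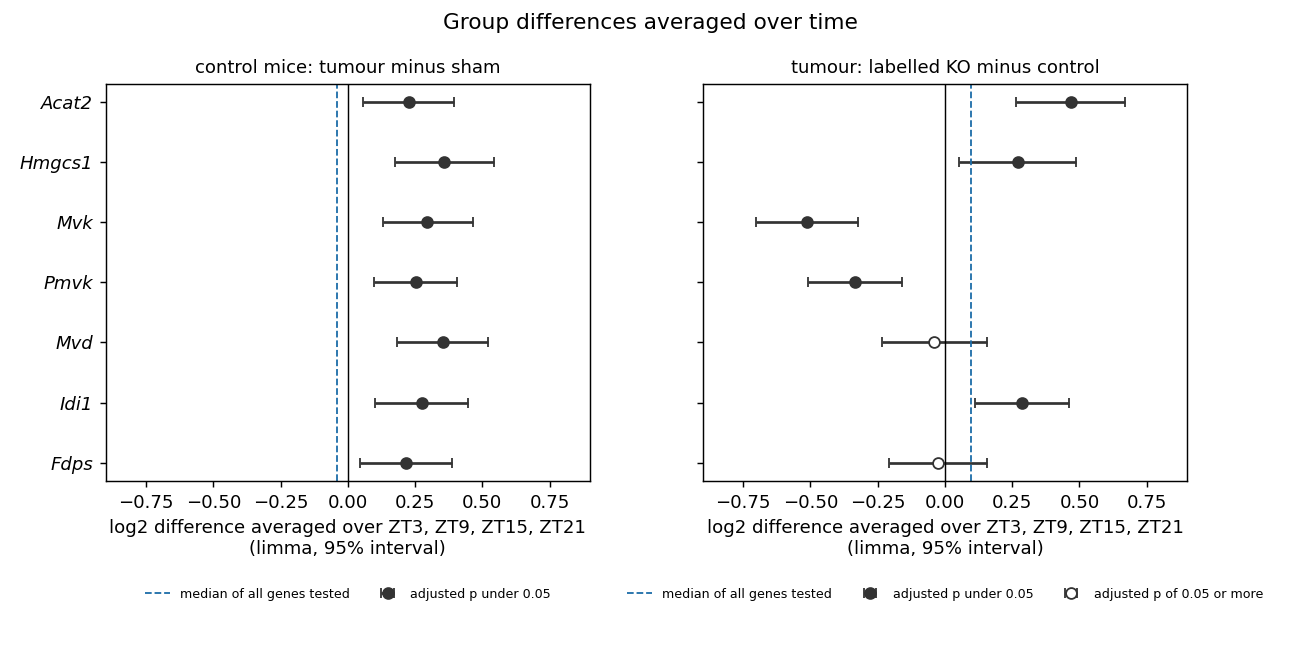
Log2 difference averaged over the 4 timepoints for each enzyme with its 95% interval (limma), tumour minus sham in control mice on the left and labelled KO minus control tumour on the right. Filled points have an adjusted p under 0.05 and dashed lines mark the median of all genes tested. All 7 enzymes lie above 0 on the left, and on the right *Mvk* (-0.513) and *Pmvk* (-0.333) lie below 0 and *Acat2* (0.468) above.

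The enzymes that carry farnesyl pyrophosphate on to cholesterol were compared next, in control tumour. Of 13 genes tested in that branch 7 were called by the test among timepoints, namely *Fdft1*, *Sqle*, *Lss*, *Msmo1*, *Hsd17b7*, *Sc5d* and *Dhcr7*, beside 5.28% of all genes, and 4 were called higher at ZT9 than at ZT21, beside 0.0920%. *Hsd17b7*, a ketosteroid reductase of the route, was higher by 1.081 (SE 0.187, adjusted p = 0.0184) and *Sqle*, the squalene epoxidase, by 0.899 (SE 0.143, adjusted p = 0.0134). *Fdft1*, the squalene synthase that draws directly on the product of *Fdps*, was higher by 0.817 (SE 0.125, adjusted p = 0.0133) and *Msmo1* by 0.633 (SE 0.110, adjusted p = 0.0184). The median over the 13 was 0.600, beside 0.549 over the 7 enzymes upstream. In the libraries labelled KO 12 of 13 and in sham 11 of 13 of these genes had a positive difference. The medians were 0.358 and 0.394, beside -0.122 and 0.028 over all genes tested, and 0 were called (limma). In each group 4 had an unadjusted p under 0.05, beside 10.9% of all genes in the libraries labelled KO and 5.32% in sham.

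Among genes that sense sterols 1 was called. *Insig1*, whose product retains SREBP in the endoplasmic reticulum and which is itself an SREBP target, averaged 57 CPM at ZT9 and 23.6 CPM at ZT21 in control tumour (log2 difference 1.261, SE 0.116, adjusted p = 1.98e-05), the smallest p of all genes in that comparison. *Srebf2* itself was at 0.468 (adjusted p = 0.0848) and was not called. Of 12 sterol-sensing genes 1 was called between ZT9 and ZT21 and the median was 0.266. Among 15 genes of the branches that use farnesyl pyrophosphate for prenylation, dolichol or ubiquinone, 0 were called between ZT9 and ZT21 (limma), 2 had an unadjusted p under 0.05 and the median was 0.054. Between the same times, among 8 fatty acid synthesis genes 0 were called and 5 had an unadjusted p under 0.05 (median 0.421). Among 7 sterol efflux genes 0 were called and 1 had an unadjusted p under 0.05 (median -0.156). Of all genes tested, 11.5% reached this unadjusted level in either direction, and their median difference was 0.040. The 2 of 15 branch genes and 1 of 7 efflux genes were not far from that share. The test among timepoints called 1 of the 15 branch genes (*Rabggtb*), 1 of the 8 fatty acid genes (*Scd2*), 2 of the 7 efflux genes (*Abcg1* and *Nr1h3*) and 1 of the 12 sterol-sensing genes (*Insig1*), beside 5.28% of all genes. The mitochondrial thiolase *Acat1*, which makes the same product as *Acat2* outside this route, averaged 63.3 CPM in control tumour, 77.5 in the libraries labelled KO and 83.1 in sham, and was lower in control tumour than in sham by a log2 difference of -0.393 (SE 0.063, adjusted p = 1.46e-05), where *Acat2* was higher.

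**Figure D5:**
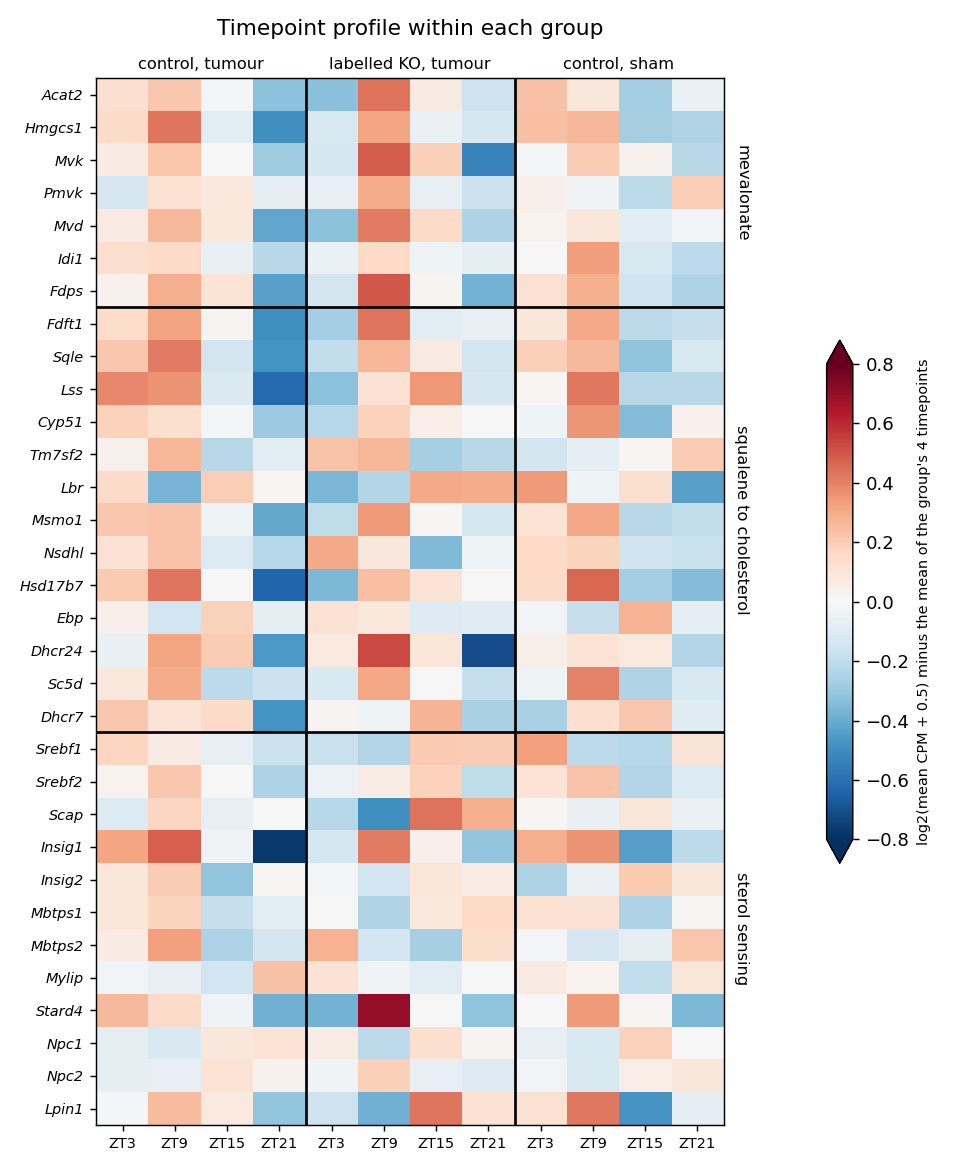
Log2 of the mean CPM + 0.5 at each timepoint minus the mean of the group's 4 timepoints, as colours, for the 7 mevalonate enzymes, 13 genes from squalene to cholesterol and 12 sterol-sensing genes (down the side) in control tumour, libraries labelled KO and sham (across). In control tumour all 7 mevalonate enzymes are above their own mean at ZT9 and below it at ZT21.

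The lists of sterol sensing and of squalene to cholesterol were then compared between the groups, without a test of one list against another. For the branch, fatty acid and efflux lists this comparison is not given here. Averaged over time, 4 of 12 sterol-sensing genes were higher in control tumour than in sham and 0 lower, beside 13.3% and 24.6% of all genes, with *Srebf2* at 0.671 (adjusted p = 2.55e-07) and *Insig1* at 0.288 on the log2 scale. In the branch from squalene to cholesterol 4 of 13 were higher (*Cyp51*, *Dhcr7*, *Fdft1* and *Lss*) and 2 lower (*Lbr* and *Nsdhl*), with a median of 0.123 beside 0.274 for the mevalonate enzymes. Between the libraries labelled KO and control tumour, 2 of 12 sterol-sensing genes were higher (*Insig1* at 0.248 and *Insig2* at 0.373) and 4 lower (*Mylip*, *Npc2*, *Stard4* and *Srebf2*, the last at -0.374), and 6 of the 13 genes from squalene to cholesterol were higher with 0 lower (median 0.223), beside 23.5% and 10.2% of all genes.

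Correlations between the enzymes were computed over all mice of a group and within timepoints. Over the 20 control tumour libraries the 21 pairs of members had correlations of log2 values from -0.021 to 0.906 (median 0.624), and from -0.266 to 0.810 (median 0.356) once the mean of each timepoint was removed. *Fdps* followed the mean of the other 6 most closely (r = 0.926) and *Pmvk* least (r = 0.393), with *Mvk* at 0.845, *Hmgcs1* at 0.835, *Mvd* at 0.834, *Idi1* at 0.678 and *Acat2* at 0.633. Within timepoints *Fdps* again came first (0.821), *Pmvk* was at 0.436 and *Acat2* was lowest (0.196). In the 12 libraries labelled KO the median over pairs was 0.660 and in the 12 sham libraries 0.420. These correlations are a description of libraries that share timepoints and composition.

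Among the other genes reported here, those most like the mean of the standardised members over the 20 control tumour libraries were *Fdft1* (r = 0.958), *Insig1* (0.888), *Msmo1* (0.839), *Sqle* (0.834), *Hsd17b7* (0.829), *Cyp51* (0.804), *Aacs* (0.781), *Fads2* (0.769), *Pianp* (0.765) and *Cd81* (0.738). Of these 10, 5 are on the list from squalene to cholesterol and 1 on that of sterol sensing. The 5 most alike in the 12 libraries labelled KO were *Msmo1* (0.912), *Gpr137b* (0.877), *Insig1* (0.873), *Pank3* (0.851) and *Il4i1* (0.811), and in the 12 sham libraries *Fdft1* (0.918), *Osbpl7* (0.916), *Ranbp17* (0.883), *Manea* (0.860) and *Csnk1a1* (0.856). *Fdft1* led in both groups of control mice.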

How the data were processed

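RNA-seq was performed on sorted lymph node cells of 44 mice. cDNA was made with the SMART-Seq v4 kit, libraries with Nextera XT, and single reads of 50 bases were obtained. The authors used STAR for alignment (mm10), HTSeq 0.9.1 for counting per gene and edgeR for scaling by library size, and deposited the resulting CPM. Such scaling lets a few abundant genes lower all others, and an unstranded kit cannot separate overlapping genes. In each library 89.1% to 91.6% of values were whole multiples of 1 read (tolerance of 0.02 reads). Because the others were fractions, no count test was run.

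Values of the 11963 of 14699 genes that reached 1 CPM in 5 or more libraries were fitted as log2(CPM + 0.5) with limma 3.58.1 in R 4.3.3, and p-values were adjusted over all these genes (Benjamini-Hochberg). All tests were two-sided, and a call is an adjusted p under 0.05. The cosinor (24 h), the test among timepoints and ZT9 against ZT21 were fitted within each group. For interactions and averages over time, both groups of a comparison (32 libraries) entered 1 fit, without a term for replicate number. The fits were tested on simulated data. Library depth was obtained from the value of 1 read. Levels per kb used the exon union of the GRCm38 annotation. Tables and motifs were handled in Python 3.11.15.

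The 7 enzymes are described in every comparison reported here. Other pairs of timepoints were used only for the order of the levels and, in control tumour, for the counts and medians of the members. Genes of other lists were named from those with an adjusted p under 0.05 in any comparison, and genes like the members from the highest correlations (10 in control tumour, 5 in each other group). Members and lists were chosen with earlier results of these data known. Some genes that these rules would name are not reported here, and they are left out of the lists.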

Additional observations from a re-analysis of the deposited data

Results flagged for a closer look

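Among the 28 groups of 5 control tumour mice formed by the 7 enzymes and 4 timepoints, 1 had a mouse far from the others. For *Acat2* at ZT9, replicate 1 read 30.6 CPM while the remaining mice read 25.1 to 26.3 CPM, and its gap to the nearest mouse was 0.763 of the range of the group, above the critical value of 0.71. Chance flags about 1 in 20 such groups. *Acat2* was also the gene whose values were not whole reads in 42 of 44 libraries. The other 6 enzymes of that mouse were not far from their groups by this measure.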

How the results depend on the processing

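Alternatives comprised pseudocounts of 1 and 0.1, median-of-ratios scaling, no filter, a mean of at least 10 CPM, least squares without moderation, an intensity trend, array weights, a replicate block and the omission of each mouse. The cause of a change was not tested. In control tumour the cosinor called 0 members and 1 with a mean of at least 10 CPM, 1 with an intensity trend, 3 with array weights and 0 to 2 with a mouse left out (2 without ZT3 replicate 3, and 1 without ZT9 replicate 1, ZT9 replicate 5 or ZT15 replicate 3). The test among timepoints called 3 members and 1 with median-of-ratios scaling, 6 with array weights, 1 with the replicate block and 1 to 5 with a mouse left out (5 without ZT3 replicate 4, and 1 without ZT9 replicate 3, ZT21 replicate 2 or ZT21 replicate 3). ZT9 against ZT21 called 2 members and 1 with median-of-ratios scaling, 6 with array weights, 0 with the replicate block and 0 to 3 with a mouse left out. It called 0 without ZT9 replicate 2, 3 or 4 or ZT21 replicate 3 or 4, and 1 without ZT3 replicate 1, 2 or 5, ZT9 replicate 1 or 5, ZT15 replicate 1, 3 or 4, or ZT21 replicate 2 or 5. In the libraries labelled KO the same contrast called 0 members and 1 with array weights. Libraries labelled KO against control tumour called 5 members, 3 with median-of-ratios scaling (*Hmgcs1* and *Idi1* lost), 4 with the replicate block and 4 to 5 with a mouse left out. Tumour against sham called 7, 5 with the replicate block (*Idi1* and *Fdps* lost) and 5 to 7 with a mouse left out. Array weights met a convergence warning. Replicate numbers did not pair the mice: same-numbered deviations correlated at -0.237 to 0.163 in control tumour, and 3 of 20 libraries matched their own number best. Leaving out a mouse moved the difference between libraries labelled KO and control tumour over -0.094 to 0.038 for *Mvd* and -0.062 to 0.024 for *Fdps*, and that between ZT9 and ZT21 in sham over -0.023 to 0.281 for *Acat2* and -0.002 to 0.222 for *Mvd*. Reversed were, between libraries labelled KO and control tumour, *Mvd* at 0.037 with array weights, 0.003 without KO ZT9 replicate 2 and 0.038 without KO ZT21 replicate 3, and *Fdps* at 0.011, 0.003 and 0.024 in the same settings, and in sham between ZT9 and ZT21, *Acat2* at -0.023 and *Mvd* at -0.002 without ZT21 replicate 3. Of single-gene values 784 kept their direction and side of the threshold under the planned settings, 15 lost a call and 18 gained one, and with a mouse left out 1725 kept theirs, 79 lost a call and 10 gained one. Median-of-ratios scaling moved the median of all genes by 0.127 for ZT9 against ZT21 in the libraries labelled KO.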
